A study of Mus musculus with 9 samples.

Results

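Glutathione, the main small thiol of the cell, is made, recycled, spent and broken down by a small set of enzymes, and 10 of their genes were followed here: Gclc, Gclm and Gss (synthesis), Gsr (recycling), Gpx1, Gpx4, Gsto1, Gstp1 and Glrx (use) and Chac2 (breakdown). They were taken by symbol from the 41388 rows of a gene table from murine Tc17 cells, and all 10 had a row. The cells were IL-17-producing CD8+ T cells of C57BL/6 mice aged 8 to 12 weeks, grown for 48 h from naive CD62L+CD44-CD8+ T cells of lymph nodes and spleen on anti-CD3 (5 µg/ml) and anti-CD28 (0.5 µg/ml) with IL-2 (50 U/ml), TGF-β (0.5 ng/ml), IL-6 (30 ng/ml) and anti-IFN-γ (5 µg/ml). One group, Ctrl, received 0.2% DMSO, one received 20 µM dimethyl fumarate (DMF), and one received 20 µM DMF with 50 µM reduced glutathione (DMF + GSH), each with 3 RNA-Seq libraries. Replicate 1 of every group came from preparation batch 1, and replicates 2 and 3 came from batch 2. The groups address what DMF did to the cells and how added glutathione altered it. The study speaks of its replicates as independent and of its data as combined experiments, while the labels tie each library only to a replicate number and a batch and not to an animal.

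Glutathione is built in 2 steps: glutamate cysteine ligase, with its catalytic subunit Gclc and modifier subunit Gclm, joins glutamate to cysteine and sets the rate, and glutathione synthetase (Gss) adds glycine. Oxidised glutathione is reduced again by glutathione reductase (Gsr) with NADPH. Peroxidases spend it on peroxides, transferases attach it to electrophiles, and glutaredoxin uses it to clear mixed disulfides from proteins. DMF is an electrophile that reacts with thiols, glutathione among them, and the transcription factor NRF2, which is released when such compounds modify KEAP1, is known for driving several of these genes.

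The libraries held between 7671772 and 14511926 reads counted to genes, recovered from the deposited normalized counts, with Ctrl replicate 3 the shallowest. The summed CD8 T cell markers Cd8a, Cd8b1, Cd3e, Cd3g and Thy1 stood between 26367 and 33112 normalized counts in all libraries. Within this sum Cd8a was above Ctrl in DMF (log2 difference 0.20 to 0.38 within the replicate numbers), while Cd3g (-0.64 to -0.38) and Cd3e (-0.28 to -0.19) were below it in all 3 numbers. The type 17 cytokines Il17a, Il17f and Il21 summed to 3230 to 4929 in Ctrl, 857 to 2148 in DMF and 3295 to 5454 in DMF + GSH. The summed 16 markers of other cells found in the table ranged over 165 to 311 normalized counts in Ctrl, 83.6 to 104 in DMF and 113 to 184 in DMF + GSH. In DMF, 7 of the 16 were at 0 in all 3 libraries, beside 2 in Ctrl and 3 in DMF + GSH. The 7 included both NK cell markers (Ncr1 and Klrb1c) and the dendritic cell marker Siglech. The B cell list overlapped between the groups, at 68.3 to 92.0 in Ctrl, 58.1 to 80.5 in DMF and 60.3 to 89.8 in DMF + GSH. Most of it was Cd79b, at 56.1 to 87.3 over the 9 libraries. The dendritic cell list moved with the groups, at 56.9 to 73.8 in Ctrl, 13.8 to 17.4 in DMF and 35.0 to 73.7 in DMF + GSH, and nearly all of it was Xcr1, a chemokine receptor, since Flt3 did not exceed 6.60 in any library. The myeloid list stood apart in 1 library: Ctrl replicate 3 had 182, with Lyz2 at 119 and Csf1r at 58.3, against 2.08 to 18.4 in the others. The part of these markers in the results was not tested. In bulk RNA, fewer cells of a type and less RNA per cell cannot be told apart.

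Per length of exon, the 10 transcripts spanned a wide range in Ctrl cells. In Ctrl, Gpx1 had 1786 ± 115 normalized counts per kb (SD, n = 3), followed by Gsr with 422 ± 45.2, Gstp1 with 337 ± 7.80, Gpx4 with 232 ± 7.36 and Gclc with 187 ± 1.60. Below these came Glrx with 84.5 ± 6.65, Gsto1 with 79.1 ± 13.8 and Gclm with 73.5 ± 7.69, whose libraries overlapped, then Gss with 44.0 ± 3.77 and Chac2 with 25.8 ± 5.81. No other neighbours in this order overlapped. The ligase subunits thus differed in level, with more catalytic than modifier transcript per kb in each Ctrl library. Under DMF the order changed in its middle, where Gsto1 reached 156 ± 16.5 normalized counts per kb, Gclm 81.3 ± 4.26 and Glrx 56.6 ± 10.8. The mean of Gclc, 217 ± 14.1, was then above that of Gpx4, 199 ± 19.6, although their DMF libraries overlapped.

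**Figure D1:**
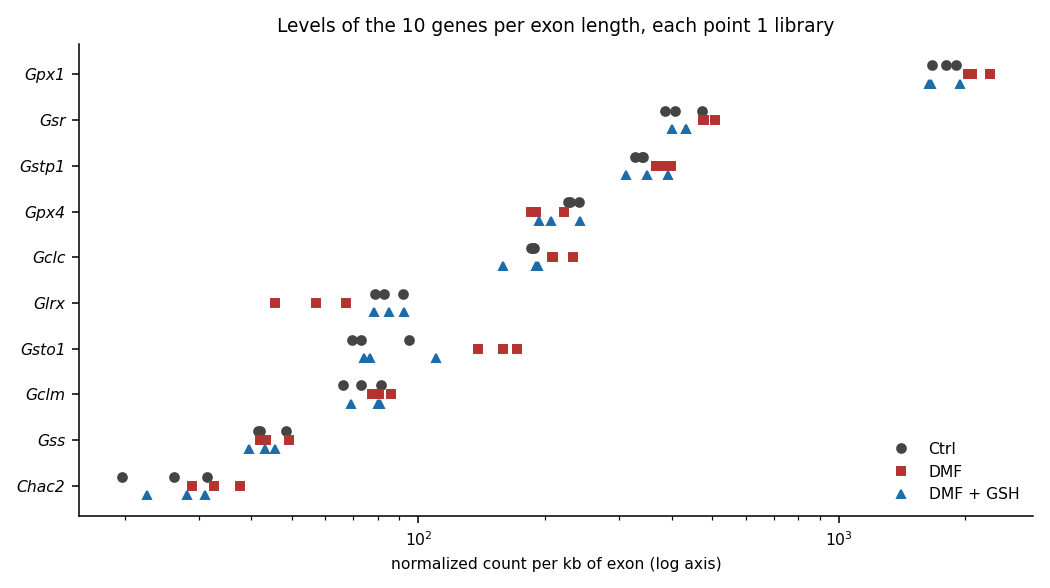
Normalized counts per kb of exon on a log axis for the 10 genes, each point 1 library and each colour 1 group (n = 3). Gpx1 stands highest and Chac2 lowest in every group, and the libraries of Glrx, Gsto1 and Gclm, which overlap in Ctrl, separate under DMF with Gsto1 above Gclm and Glrx below it.

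With DMF, 2 of the 10 genes rose and 1 fell at an adjusted p under 0.05 (limma, log2 of the normalized count + 1, preparation batch in the model, Benjamini-Hochberg over 11599 genes). Gsto1 and Gpx1 were the genes that rose and Glrx the gene that fell. Among all genes tested, 28.0% passed this limit, so the 3 of 10 lies close to the background. Of the members, 8 had a positive and 2 a negative fitted log2 fold change, with a median of 0.20 beside 0.01 over all genes tested. All 10 had the same sign within each of the 3 replicate numbers, as 66.3% of all genes did. In 5 members every DMF library lay above every Ctrl library, in 2 every DMF library lay below, and in 3 the groups overlapped, where 41.3% of all genes tested did not overlap. Under the limits used in the study for its own calls, an adjusted p under 0.01 and a log2 fold change of at least 0.75 in size, Gsto1 alone passed in limma, with 2.89% of all genes.

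The replicate numbers run through the 3 groups, and libraries with the same number deviated together. A second limma fit, blocked on the replicate number, passed 45.0% of all genes (23.7% higher, 21.4% lower) and passed 6 of the 10 members. With the block Gclc and Gsr also passed, higher in DMF, and Gpx4, lower, and these 3 blocked calls were each lost without some single libraries. Values of this fit are given below as blocked.

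**Figure D2:**
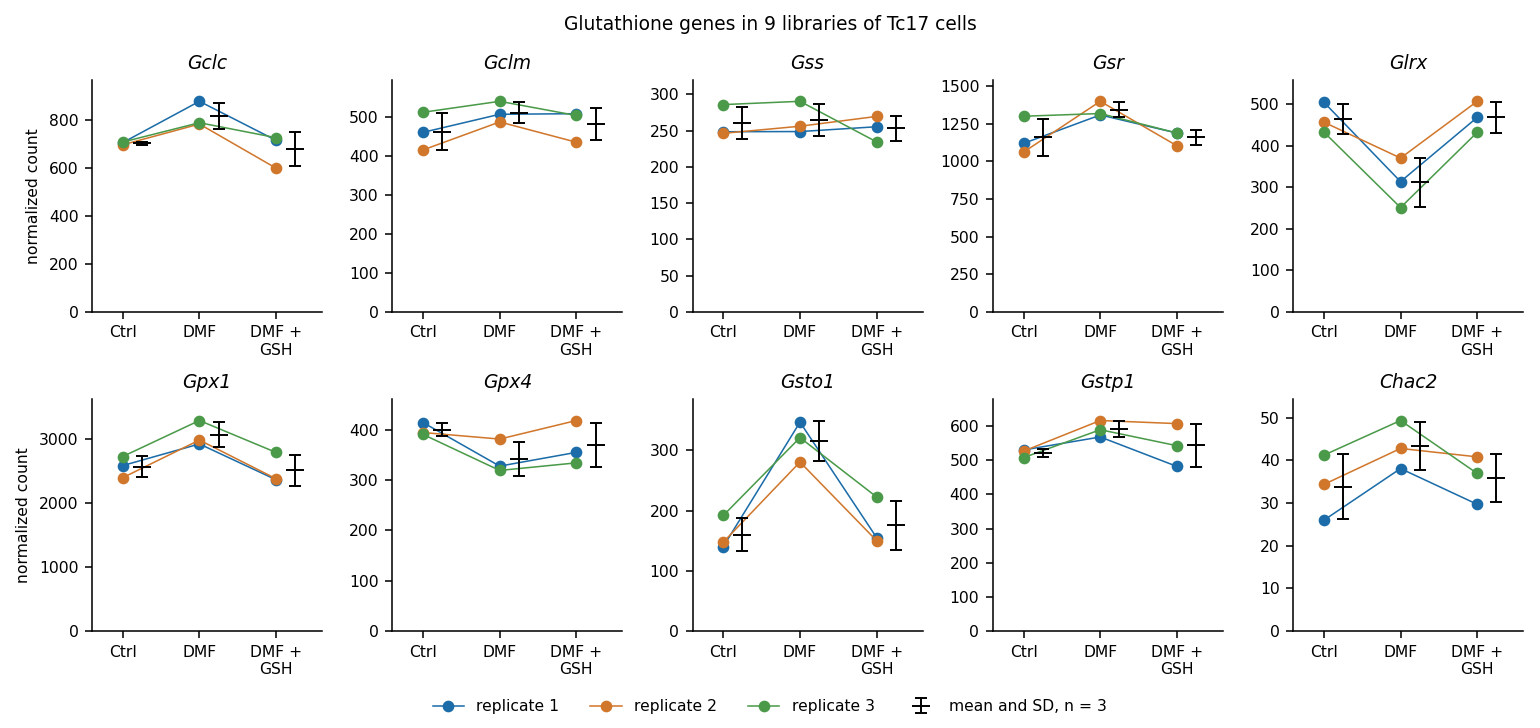
Normalized counts of the 10 genes in each of the 9 libraries, with lines joining libraries of the same replicate number and the mean ± SD of each group (n = 3) beside the points; each vertical axis starts at 0. Gsto1 peaks and Glrx dips in DMF in all 3 replicate numbers, and the DMF + GSH libraries of both overlap with those of Ctrl.

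Synthesis moved little. Gclc (ENSMUSG00000032350, GRCm38 chr9:77754535-77794485, plus strand) was at 706, 697 and 708 normalized counts in Ctrl replicates 1, 2 and 3, and at 878, 783 and 789 in DMF. All 3 DMF libraries were above the 3 Ctrl libraries, which differed among themselves by less than any of them differed from DMF. The log2 fold change was 0.21 ± 0.08 (SE, n = 3 per group, adjusted p = 0.0841, limma), a 1.16-fold difference that passed only with the block (blocked adjusted p = 0.0211, with 0.0186 to 0.290 over the alternatives). The blocked call of Gclc was lost without Ctrl replicate 1, Ctrl replicate 3, DMF replicate 1 or DMF replicate 2. Its blocked adjusted p was then 0.0682 to 0.116 in limma. Gclm (ENSMUSG00000028124, chr3:122245557-122270732, plus strand) was at 460.4, 415 and 512 in Ctrl and at 507, 487 and 540.05 in DMF. Its groups overlapped, although DMF was higher within each replicate number, by 0.08 to 0.23 on the log2 scale. The fitted log2 fold change of Gclm was 0.15 (95% interval -0.08 to 0.38, adjusted p = 0.300, limma, 0.119 blocked).

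Gss (ENSMUSG00000027610, chr2:155563181-155592810, minus strand), the second enzyme of synthesis, was at 248, 246 and 286 normalized counts in Ctrl and at 249, 256 and 290.35 in DMF. The groups lay on top of each other, with a log2 fold change of 0.03 and a 95% interval of -0.21 to 0.27 (adjusted p = 0.868, limma). On the reference annotation its exons overlap those of Acss2 on the opposite strand, which was at 127 to 255, and Gclm overlaps Gm17494 in the same way, at 6.50 to 19.0. The methods do not say whether counting used strand, so reads of these overlaps cannot be told apart.

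Recycling was close to the threshold. Gsr (ENSMUSG00000031584, chr8:33652523-33698163, plus strand) was at 1120.4, 1063 and 1301 normalized counts in Ctrl and at 1309.8, 1400.5 and 1319 in DMF. The groups did not overlap, but Ctrl replicate 3 nearly reached the DMF libraries. The log2 fold change was 0.21 ± 0.08 (SE, n = 3 per group, adjusted p = 0.0844, limma, 0.0153 blocked, with 0.00386 to 0.291 over the alternatives). Its blocked call was lost without Ctrl replicate 1, Ctrl replicate 2 or DMF replicate 2 (blocked adjusted p = 0.0706 to 0.159, limma). Without Ctrl replicate 3, the library with the myeloid transcripts, the log2 fold change was 0.30 and Gsr passed in limma (adjusted p = 0.0161). Gsto1 (1.12), Gpx1 (0.29) and Glrx (-0.63) also passed in limma without that library, which makes 4 of the 10 members. Calls over all genes rose as well, to 3789 in the same fit from 3242 with every library kept.

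Among the members that use glutathione, the transferase Gsto1 (ENSMUSG00000025068, chr19:47854970-47864790, plus strand) moved most. This omega-class enzyme works as a thiol transferase and reduces dehydroascorbate. It was at 140.3, 148 and 192 normalized counts in Ctrl replicates 1, 2 and 3, and at 347, 281 and 321 in DMF, from 135 to 159 and 328 to 332 reads. The lowest DMF library was well above the highest Ctrl library. Gsto1 rose 1.98-fold, with a log2 fold change of 0.99 ± 0.18 (SE, n = 3 per group, adjusted p = 0.00702, limma). Within replicate numbers the log2 difference was 1.30 in batch 1 and 0.92 and 0.74 in batch 2. The limma call was lost without Ctrl replicate 1 (adjusted p = 0.0505) or DMF replicate 1 (0.0605), and the blocked call held without each of the 9 libraries in turn, at an adjusted p of at most 9.65e-05.

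Glrx (ENSMUSG00000021591, chr13:75839868-75850154, plus strand), the cytosolic glutaredoxin that removes glutathione from proteins, went the other way. It was at 504, 456 and 432 normalized counts in Ctrl and at 313, 369.8 and 251 in DMF. Every DMF library was below every Ctrl library. Glrx fell by 0.59 ± 0.14 on the log2 scale (SE, n = 3 per group, adjusted p = 0.0140, limma), to 0.66 of the Ctrl level. The log2 difference was -0.68 in batch 1 and -0.30 and -0.78 in batch 2. The limma call was lost without Ctrl replicate 1 (adjusted p = 0.0795), Ctrl replicate 2 (0.0507), DMF replicate 1 (0.0825) or DMF replicate 3 (0.0573), and the blocked call held without each library, at an adjusted p of at most 0.00112.

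The upstream sequence is shown for Gsto1 and Glrx, the members that moved most and in opposite directions, and for Gclm, a gene used as a textbook NRF2 target, from RefSeq on GRCm38.p6, up to the base before the annotated gene start. Of the 10 members, 8 were matched in the RefSeq promoter table used here, which gives 250 bases before to 50 after the start, and Gclc and Gsr were not matched. The windows were searched on both strands for TGACNNNGC, the core letters of the antioxidant response element to which NRF2 binds, and for TGANTCA, the AP-1 letters, which can share bases with the former. TGACNNNGC was in 12.4% of 32851 promoter windows and in 1 of the 12 windows of the 8 members, that of Gclm. TGANTCA was in 7.81% of all windows and in 3 of the 12, of which 2 are overlapping windows of Glrx and 1 is of Gstp1. Capitals mark the match, which in Gclm reads on the minus strand. Gsto1 has none, which says only that these letters are not in this window. The regions are chr19:47854723-47854969, chr13:75839635-75839867 and chr3:122245307-122245556, all on the plus strand.
Gsto1: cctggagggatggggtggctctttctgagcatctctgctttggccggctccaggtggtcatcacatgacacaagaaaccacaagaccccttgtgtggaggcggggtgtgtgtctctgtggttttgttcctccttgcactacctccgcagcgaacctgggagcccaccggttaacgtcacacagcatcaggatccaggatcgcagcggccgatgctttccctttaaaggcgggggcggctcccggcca
Glrx: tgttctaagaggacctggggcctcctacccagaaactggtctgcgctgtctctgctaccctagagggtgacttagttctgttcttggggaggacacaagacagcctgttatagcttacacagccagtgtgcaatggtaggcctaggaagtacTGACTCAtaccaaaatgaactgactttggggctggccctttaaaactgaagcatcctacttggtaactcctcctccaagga
Gclm: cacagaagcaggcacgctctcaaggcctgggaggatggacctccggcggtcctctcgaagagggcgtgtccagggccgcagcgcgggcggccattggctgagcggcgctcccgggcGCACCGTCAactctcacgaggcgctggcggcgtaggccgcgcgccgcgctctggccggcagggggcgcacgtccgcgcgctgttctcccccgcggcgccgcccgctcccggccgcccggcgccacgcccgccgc
The match starts 98 bases before the RefSeq start in Glrx and 134 bases before it in Gclm.

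Gpx1 (ENSMUSG00000063856, chr9:108338903-108340343, plus strand), the selenoenzyme that reduces hydrogen peroxide in cytosol and mitochondria, was at 2589.9, 2400.4 and 2732 normalized counts in Ctrl and at 2928, 2989 and 3295.5 in DMF. The groups did not overlap. Gpx1 rose 1.19-fold, by 0.25 ± 0.08 on the log2 scale (SE, n = 3 per group, adjusted p = 0.0473, limma, 0.000695 blocked, with 0.000517 to 0.179 over the alternatives). The limma call sat at the threshold and was lost without Ctrl replicate 1 (adjusted p = 0.0947), Ctrl replicate 2 (0.178), DMF replicate 1 (0.142), DMF replicate 3 (0.179) or DMF + GSH replicate 1 (0.0694), and the blocked call held without each library, at an adjusted p of at most 0.0104.

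Gpx4 (ENSMUSG00000075706, chr10:80047166-80056439, plus strand), which reduces lipid hydroperoxides in membranes, was at 415, 395 and 391 normalized counts in Ctrl and at 328, 382 and 319 in DMF. All DMF libraries were lower, replicate 2 by little. The log2 fold change was -0.23 ± 0.11 (SE, n = 3 per group, adjusted p = 0.150, limma, 0.0430 blocked, with 0.0164 to 0.399 over the alternatives). The blocked call of Gpx4 held only without Ctrl replicate 2 or DMF + GSH replicate 1. Without any other library its blocked adjusted p was 0.0516 to 0.195 in limma.

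Gstp1 (ENSMUSG00000060803, chr19:4035407-4037985, minus strand), the pi-class transferase that conjugates electrophiles, was at 530.04, 527 and 508 normalized counts in Ctrl and at 568, 616 and 589 in DMF. The groups did not overlap. The log2 fold change was 0.18 (95% interval -0.01 to 0.37, adjusted p = 0.143, limma, 0.0635 blocked). Its neighbouring paralogue Gstp2 was at 0 to 2.20 in all libraries, and the methods do not say how reads shared by the copies were counted.

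Chac2 (ENSMUSG00000020309, chr11:30976707-30986350, minus strand), a cyclotransferase that cleaves reduced glutathione, was the least expressed member. It was at 26.0, 34.4 and 41.2 normalized counts in Ctrl and at 38.1, 42.8 and 49.4 in DMF, from 25 to 51 reads a library. The groups overlapped, although DMF was higher within every replicate number, by 0.25 to 0.53 on the log2 scale. At this depth the fitted difference of 0.37 was not past the spread (95% interval -0.06 to 0.79, adjusted p = 0.172, limma).

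**Figure D3:**
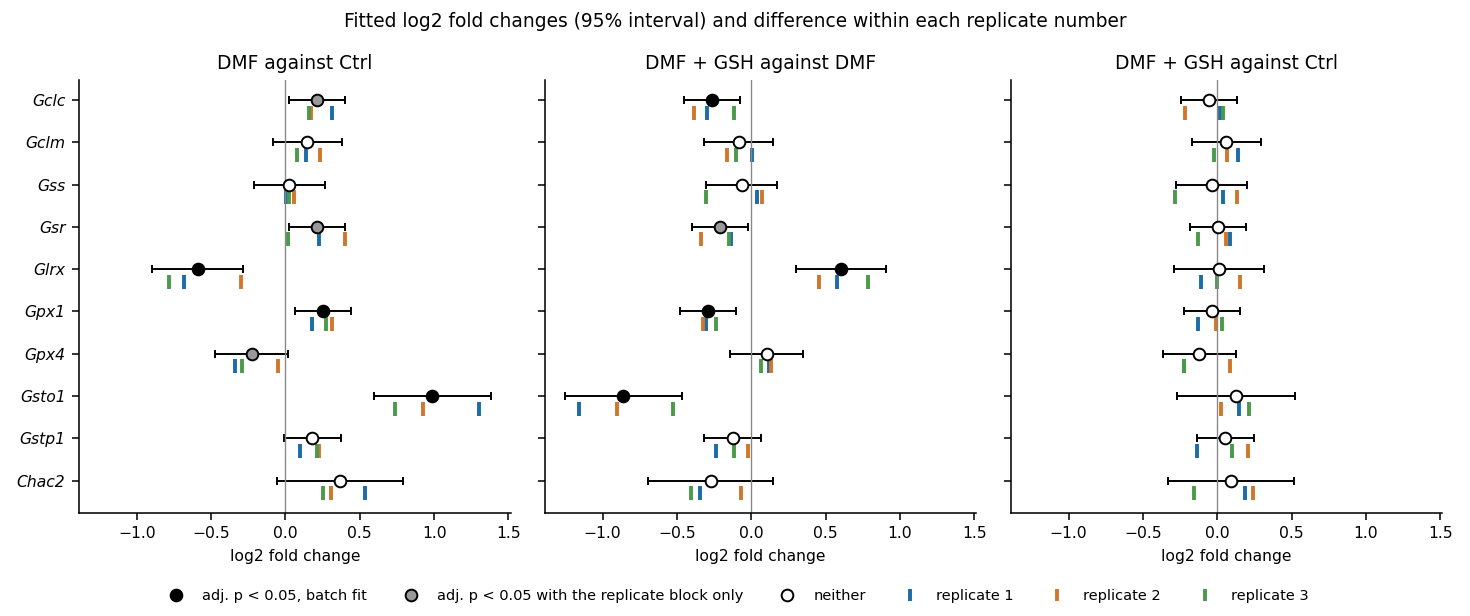
Fitted log2 fold changes of the 10 genes with 95% intervals (circles and bars) and the log2 difference within each replicate number (coloured ticks) for the 3 comparisons. Gsto1 at 0.99 and Glrx at -0.59 in DMF against Ctrl have counterparts of -0.86 and 0.60 in DMF + GSH against DMF, and all 10 intervals cover 0 in DMF + GSH against Ctrl.

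With glutathione added to DMF, Glrx rose and Gsto1, Gpx1 and Gclc fell. In DMF + GSH against DMF these 4 of the 10 members passed in limma, beside 22.3% of all genes tested. The comparisons share the DMF libraries, so the opposite signs are no second observation. With the block, which passed 41.5% of all genes, Gsr also passed, lower in DMF + GSH. In 5 members the groups did not overlap, 1 above and 4 below, beside 38.3% of all genes, and 8 members had the same sign within all 3 replicate numbers, beside 65.3%. In the batch fit of limma none of the members passed the limits used in the study, which 0.543% of all genes passed. Gsto1 passed them with the block (adjusted p = 1.60e-05, limma) and in DESeq2 (adjusted p = 0.000381). The share of all genes passing these limits with the block or in DESeq2 was not counted.

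Gsto1 was at 155, 150.0 and 223 normalized counts in DMF + GSH replicates 1, 2 and 3, all below the 3 DMF libraries. It fell by 0.86 ± 0.18 on the log2 scale (SE, n = 3 per group, adjusted p = 0.0137, limma), to 0.55 of the DMF level. Glrx was at 468, 506 and 432, all above the DMF libraries. It rose 1.52-fold, by 0.60 ± 0.14 on the log2 scale (SE, n = 3 per group, adjusted p = 0.0164, limma). Both limma calls were lost without DMF replicate 1, DMF replicate 3, DMF + GSH replicate 1 or DMF + GSH replicate 2, where the adjusted p was 0.0612 to 0.104 for Gsto1 and 0.0709 to 0.107 for Glrx. Their blocked calls held without each of the 9 libraries.

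Gpx1 was at 2368, 2383 and 2795 normalized counts in DMF + GSH, below every DMF library. It fell by 0.29 ± 0.08 on the log2 scale (SE, n = 3 per group, adjusted p = 0.0357, limma), a call lost without Ctrl replicate 1, DMF replicate 1, DMF replicate 3, DMF + GSH replicate 1 or DMF + GSH replicate 2, at an adjusted p of 0.0558 to 0.160, and held with the block without each library. Gclc was at 715, 599 and 726, with replicate 2 the lowest of all 9 libraries. It fell by 0.27 ± 0.08 on the log2 scale (SE, n = 3 per group, adjusted p = 0.0468, limma, 0.00580 blocked). That limma call was kept only without Ctrl replicate 3 or DMF + GSH replicate 3. Without any other library its adjusted p was 0.0580 to 0.210, and on recovered reads it was 0.0507 in edgeR and 0.0656 in DESeq2. With the block it was lost without DMF + GSH replicate 2 (adjusted p = 0.0800, limma).

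Gsr was at 1189, 1105 and 1189 normalized counts in DMF + GSH, below all 3 DMF libraries, with a log2 fold change of -0.21 (adjusted p = 0.0988, limma, 0.0189 blocked, with 0.0110 to 0.295 over the alternatives, and 0.0472 in limma without Ctrl replicate 3). The blocked call of Gsr was lost without DMF replicate 2, DMF + GSH replicate 2 or DMF + GSH replicate 3. Its blocked adjusted p was then 0.0854 to 0.182 in limma. Gstp1, at 482, 607 and 543, and Chac2, at 29.7, 40.8 and 36.9, were lower than DMF within every replicate number but overlapped with it. Gclm, at 508, 435 and 504, Gss, at 255, 269.5 and 234, and Gpx4, at 355, 419 and 334, overlapped with DMF as well. These 5 had log2 fold changes of -0.13 (Gstp1), -0.27 (Chac2), -0.09 (Gclm), -0.07 (Gss) and 0.10 (Gpx4), none past the threshold in either fit.

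No member differed past the threshold between cells given both compounds and Ctrl cells. In DMF + GSH against Ctrl the libraries of all 10 members overlapped, while 4.47% of all genes tested did not, and the adjusted p was 1 for each member in limma. No gene passed among the 11599 tested in limma, edgeR or DESeq2, with 222 at an unadjusted p under 0.05, and 0.0345% passed with the block (0.00862% higher, 0.0259% lower), no member among them. The sign was the same within all 3 replicate numbers for 1 member, Gsto1, and for 25.9% of all genes. The fitted log2 fold changes of the members ran from -0.12 for Gpx4 to 0.13 for Gsto1. For Gsto1 the 95% interval was -0.27 to 0.52 and for Glrx -0.29 to 0.32 (n = 3 per group), and differences inside these intervals were not excluded.

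Other genes of glutathione handling were read from 9 lists with 94 symbols, of which 93 were in the table and 64 reached a mean of 10 normalized counts and were tested. With DMF, 22 of the 64 rose and 6 fell in limma beside 14.6% and 13.3% of all genes (31 and 9 with the block), and their median log2 fold change was 0.21. Among 9 genes that supply cysteine, glycine, glutamate and serine, 8 rose and none fell (all 9 rose with the block), with a median of 0.51. Cth, the lyase that releases cysteine from cystathionine, rose from 18.7 ± 3.60 to 51.1 ± 15.1 normalized counts (SD, n = 3), by 1.38 on the log2 scale (adjusted p = 0.00811, limma). The amino acid carrier Slc1a4 rose by 0.71, mitochondrial serine hydroxymethyltransferase Shmt2 by 0.64 and the cystine carrier's heavy chain Slc3a2 by 0.62. Ahcy did not pass in limma (0.29, adjusted p = 0.107, 0.00571 blocked). The light chain Slc7a11, which imports cystine, was below the minimum for testing, at 6.03 ± 2.01 in Ctrl, 11.7 ± 2.03 in DMF and 3.51 ± 1.14 in DMF + GSH (SD, n = 3). Its DMF libraries lay above all others, but on 9 to 14 reads a library, beside 4 to 7 in Ctrl and 3 to 4 in DMF + GSH.

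**Figure D4:**
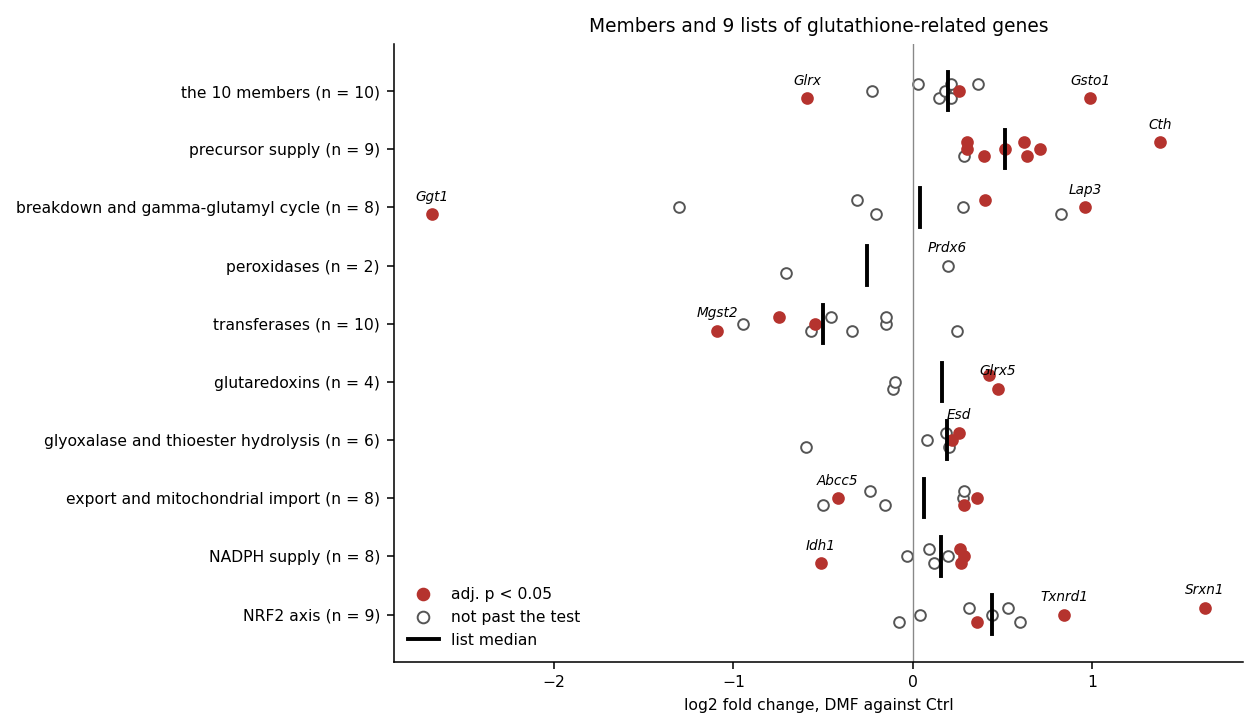
Fitted log2 fold changes of DMF against Ctrl for the 10 members and the tested genes of 9 lists; filled points have an adjusted p under 0.05 (limma) and black bars mark list medians. The precursor genes lie to the right of 0, most transferases to the left, and Ggt1 lies farthest left at -2.68.

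Of 8 genes of glutathione breakdown and the gamma-glutamyl cycle, 2 rose and 1 fell in limma (4 and 2 with the block). Ggt1, the surface enzyme that cleaves extracellular glutathione, was at 85.3 to 378 normalized counts in Ctrl, 16.5 to 42.3 in DMF and 52.5 to 218 in DMF + GSH. It fell by 2.68 on the log2 scale with DMF (adjusted p = 0.00642, limma) and rose by 1.89 with added glutathione (adjusted p = 0.0193, limma). In DMF + GSH, Ggt1 was below Ctrl within all 3 replicate numbers (log2 difference -0.89 to -0.69), but the groups overlapped and it did not pass in limma. The leucine aminopeptidase Lap3 rose by 0.96 and the cyclotransferase Ggct by 0.40, while Cndp2 (0.28) passed only with the block (adjusted p = 0.00137) and Ggt7 (-0.20) in neither fit. Of 10 transferases other than the members, none rose and 3 fell in limma (1 and 4 with the block), and the median was -0.50, where Gsto1 had risen. Mgst2 fell by 1.09, Gstm1 by 0.74 and Gstt2 by 0.55, while Gstcd (0.25) passed only with the block (adjusted p = 0.0316) and Gstz1 (-0.15) in neither fit.

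The glutaredoxin list held 4 other genes, Glrx2, Glrx3, Glrx5 and the thioredoxin-domain protein Txndc12, of which 2 rose where Glrx had fallen. Glrx5 and Glrx3, which carry iron-sulfur clusters, rose by 0.47 and 0.42 on the log2 scale (adjusted p = 0.0202 and 0.0197, limma), and Txndc12 (-0.11) and Glrx2 (-0.10) did not pass. Of the listed peroxidases other than the members, only Prdx6 (0.19) and Gpx7 (-0.71) reached the minimum for testing and neither passed in limma, Prdx6 doing so with the block (adjusted p = 0.00334). In the NADPH list of 8, the pentose phosphate genes Tkt (0.28), G6pdx (0.27) and Pgd (0.26) rose and Idh1 fell by 0.51, with Me2 (0.12) and Taldo1 (-0.03) not past the test. Of 6 glyoxalase and thioester genes, Esd (0.26) and Adh5 (0.22) rose (2 rose and 1 fell with the block), and Glo1 (0.18) and Lactb2 (0.08) did not pass. Of 8 transport genes, the mitochondrial glutathione carrier Slc25a39 (0.36) and the exporter Abcc1 (0.28) rose and Abcc5 fell by 0.42 in limma (4 rose and 1 fell with the block). Abcc4 (0.28) passed only with the block (adjusted p = 0.00890) and Slc25a11 (-0.16) in neither fit.

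In the NRF2 list, 3 of 9 rose and none fell in limma, beside 14.6% and 13.3% of all genes. With the block 5 rose, beside 23.7% of all genes, and the median was 0.44. Srxn1, the sulfiredoxin that repairs overoxidised peroxiredoxins, was at 39.9 to 48.3 normalized counts in Ctrl, 117 to 180 in DMF and 44.7 to 60.5 in DMF + GSH. The DMF libraries lay above all others, and Srxn1 rose by 1.63 on the log2 scale (adjusted p = 0.00173, limma), more than any of the 10 members. Thioredoxin reductase Txnrd1 rose by 0.84 and Mafg, a partner of NRF2, by 0.36. Keap1 (0.04) and Nfe2l2 (-0.08), which encodes NRF2, did not pass in either fit. Nor did Nqo1 (0.60, adjusted p = 0.295, limma, 0.237 blocked) or Hmox1 (0.31, adjusted p = 0.229, limma, 0.174 blocked). Both were lower in DMF than in Ctrl in 1 replicate number and higher in 2. In DMF + GSH against DMF, 4 of the 64 listed genes rose and 21 fell, beside 9.99% and 12.4% of all genes (11 and 28 with the block, beside 19.9% and 21.6%), and in DMF + GSH against Ctrl none passed.

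The pattern of the ligase over the 9 libraries, taken as the mean of Gclc and Gclm, was compared with 8734 genes of a mean of at least 100 normalized counts by the root mean square difference of log2(normalized count + 1), after each gene's mean within its replicate number was taken off. The 5 closest genes were Ssb (0.0127), Supt16 (0.0164), Tmem14c (0.0227), Tfrc (0.0230) and Sar1a (0.0235), against a median of 0.144 over all genes compared. Gclc and Gclm themselves differed by 0.102 in this measure.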

How the data were processed

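RNA-Seq was done on 9 libraries of murine Tc17 cells, 3 per group, with single reads of 50 bases. The authors aligned them with STAR 2.4.0b to Ensembl GRCm38 (annotation 76), counted reads per gene with featureCounts and used DESeq2 1.18.1 with the preparation batch in the model. The deposited values are a signal per gene, the read count divided by the library's size factor (normalized count). Every value was a whole multiple (tolerance 0.01) of what 1 read is worth, which gave back the reads. The authors' own columns of fold changes and p-values were not used.

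Values were tested with limma 3.58.1 (R 4.3.3) as log2(normalized count + 1) with group and batch, on 11599 of 41388 genes with a mean of at least 10, with Benjamini-Hochberg adjustment over all of them. The replicate numbers were taken to pair the samples because libraries of the same number correlated in their deviations from the group means (r = 0.45 to 0.58 in 9 pairs). The other 18 pairs were at most -0.06. Deviations within a group sum to 0, which pushes these other pairs below 0, so they are no second observation. The alternatives were other pseudocounts and minimum means, TMM rescaling, no batch term, the replicate block, 6 libraries, each library left out, and edgeR 4.0.16 and DESeq2 1.42.0 on the recovered reads. Positions are from GENCODE vM21 (GRCm38).

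The 10 members and the lists were chosen with earlier results of these data known. All members were named. Per list, up to 4 genes past the test with the largest fold change were named. Up to 2 not past it, with the highest mean, were named as well. Slc7a11, Nqo1 and Hmox1 were added after their values were seen.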

Additional observations from a re-analysis of the deposited data

How the results depend on the processing

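In DMF against Ctrl, 3 members passed in the batch fit of limma and with pseudocounts of 0.5 and 4, a minimum mean of 50, TMM rescaling, edgeR and DESeq2; 2 passed with no minimum mean, no batch term or only the 6 libraries compared, 6 with the replicate block, and 0 to 4 when 1 library was left out (0 without Ctrl replicate 1 or DMF replicate 1, 3 to 7 with the block). In DMF + GSH against DMF, 4 passed, 2 with no minimum mean, 3 with TMM rescaling, no batch term, 6 libraries, edgeR or DESeq2, 5 with the block, and 0 to 5 without 1 library (0 without DMF replicate 1, DMF replicate 3, DMF + GSH replicate 1 or DMF + GSH replicate 2, 3 to 5 with the block). In DMF + GSH against Ctrl, 0 members passed in every fit. Over all genes, the block moved the calls from 3242 to 5224, from 2592 to 4814 and from 0 to 4 in the 3 comparisons. Leaving out 1 library gave 110 to 3789, 10 to 3097 and 0 calls, and with the block, an alternative added after the data were seen, 4102 to 5466, 3581 to 4873 and 0 to 16. The fits without 1 library have fewer samples, and the causes of the moved counts were not tested.

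No call on a member changed sign. Signs turned only in fitted log2 fold changes that did not pass. In DMF against Ctrl, Gss ran from -0.034 to 0.090 over the fits without 1 library, with or without the block, and in DMF + GSH against DMF from -0.14 to 0.057. In DMF + GSH against Ctrl, these fits gave -0.13 to 0.026 for Gclc, -0.014 to 0.15 for Gclm, -0.12 to 0.084 for Gss, -0.067 to 0.092 for Gsr, -0.093 to 0.068 for Glrx, -0.11 to 0.017 for Gpx1, -0.054 to 0.26 for Gsto1 and -0.017 to 0.13 for Gstp1, and DESeq2 gave -0.00076 for Gsr. Chac2 was not tested at a minimum mean of 50. Its 25 to 55 reads a library limit what could be seen for it.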
